A study of Mus musculus with 4 samples.

Results

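Open chromatin at the keratin genes was examined in mouse lung tumours by ATAC-seq, which marks accessible DNA through the insertions of a transposase. The members are the 53 protein-coding genes whose symbol is Krt followed by a number, of 21887 protein-coding genes placed on GRCm38.p6, the RefSeq assembly whose primary chromosomes are those of mm10. Of these genes, 27 lie in a cluster on chromosome 11 and 26 in a cluster on chromosome 15. The tumours came from 4 C57B6J mice aged 55 weeks. The genotype of 2 mice was KrasLA1/+;Dicer1S2D/+ (Dicer1S2D tumours in what follows) and that of the other 2 was KrasLA1/+ (KrasLA1 tumours). All 4 mice carried KrasLA1, a latent allele that stays silent until a chance recombination event in a cell. Dicer1S2D, present as 1 copy, is a phosphomimetic allele of Dicer1, which encodes an enzyme of microRNA maturation. Replicate 1 was a female and replicate 2 a male in each group, so that sex and replicate number split the libraries alike. The samples were dissected bulk tumour tissue, and the sources used here do not say how many tumours each one pooled. The deposited values are the positions of peaks in mm10, called in each library, and of 61972 merged regions. A peak is present or absent and has a width, with no height or read count, and the sequencing depth is unknown.

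Keratins are the intermediate filament proteins of epithelial cells. A type I (acidic) keratin pairs with a type II (basic to neutral) keratin, and the pair differs with the epithelium: Krt8 with Krt18 in simple epithelia such as the alveolar and airway lining, Krt5 with Krt14 in the basal layer of stratified epithelia, and others in differentiated epidermis, hair and nail. In the mouse the type I genes lie in the chromosome 11 cluster and the type II genes in the chromosome 15 cluster, except that the type I gene Krt18 lies beside Krt8 on chromosome 15.

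Start sites of 4 of the 6 simple-epithelium keratins lay in a peak in every tumour. That of Krt20 lay in none, and that of Krt19, which has no entry in the promoter table, was not placed. RefSeq's promoter table (GRCm38.p6) held 36 of the 53 genes. Among them the start site lay in a peak for 5 genes in Dicer1S2D replicate 1, 4 in Dicer1S2D replicate 2 and 5 in each KrasLA1 tumour. Krt7, Krt8, Krt18 and Krt23 made up the 4, and the fifth was Krt13, whose alternative start inside the gene lay in a peak. Over the 17492 protein-coding genes with an entry, the start site lay in a peak for 50.5% and 49.0% in Dicer1S2D replicates 1 and 2, and for 50.1% and 52.0% in KrasLA1 replicates 1 and 2. The 250 bases before the start are shown for the 4 genes open in every library, and for Krt20, the simple-epithelium keratin without a region. They are Krt7 chr15:101412153-101412402 (+ strand), Krt8 chr15:102004343-102004592 (- strand), Krt18 chr15:102027966-102028215 (+ strand), Krt23 chr11:99493121-99493370 (- strand), and Krt20 chr11:99438154-99438403 (- strand). Capitals mark matches to GGGCGG or TATAAA on either strand, and the other motifs searched, TGANTCA (AP-1) and CCAAT, had no match in these windows.
Krt7: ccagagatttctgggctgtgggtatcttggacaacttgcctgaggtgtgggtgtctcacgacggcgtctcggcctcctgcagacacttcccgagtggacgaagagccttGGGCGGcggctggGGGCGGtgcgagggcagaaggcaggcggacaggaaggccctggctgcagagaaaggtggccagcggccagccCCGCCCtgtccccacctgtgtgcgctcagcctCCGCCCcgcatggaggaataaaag
Krt8: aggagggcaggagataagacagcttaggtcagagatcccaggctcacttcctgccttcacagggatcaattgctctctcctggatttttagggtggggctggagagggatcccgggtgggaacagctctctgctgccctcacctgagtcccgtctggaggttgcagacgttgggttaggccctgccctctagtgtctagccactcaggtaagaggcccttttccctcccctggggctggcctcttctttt
Krt18: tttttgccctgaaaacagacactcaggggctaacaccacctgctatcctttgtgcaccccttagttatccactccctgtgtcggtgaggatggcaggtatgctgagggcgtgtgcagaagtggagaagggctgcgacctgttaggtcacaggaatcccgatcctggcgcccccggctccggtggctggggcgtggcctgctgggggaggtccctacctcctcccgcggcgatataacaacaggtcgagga
Krt23: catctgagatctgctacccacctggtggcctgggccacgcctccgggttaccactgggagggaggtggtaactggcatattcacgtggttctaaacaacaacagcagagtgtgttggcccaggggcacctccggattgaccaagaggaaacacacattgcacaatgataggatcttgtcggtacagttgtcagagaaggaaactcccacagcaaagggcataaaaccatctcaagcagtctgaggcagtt
Krt20: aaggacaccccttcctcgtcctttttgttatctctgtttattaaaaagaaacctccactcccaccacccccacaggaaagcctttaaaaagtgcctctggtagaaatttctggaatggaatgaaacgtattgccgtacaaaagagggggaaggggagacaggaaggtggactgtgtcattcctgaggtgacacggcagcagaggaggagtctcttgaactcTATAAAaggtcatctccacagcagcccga
All 250 bases lay in a peak of every library for Krt7, Krt8 and Krt23, and 0 in any library for Krt20. For Krt18, 162 and 52 of the bases lay in a peak in Dicer1S2D replicates 1 and 2, and 157 and 168 in KrasLA1 replicates 1 and 2.

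The letters of these windows differed between the open and the other keratin genes. TATAAA, the core of the TATA box, stood in 17 of 37 keratin windows (45.9%), against 11.6% of 21263 windows of protein-coding genes. It stood in 0 of the 4 windows open in every library and in 17 of the other 33 (51.5%). Only these exact letters were counted, and near variants of the TATA box were not searched. In 12 of the 17 genes a match began 26 to 31 bases before the start. They were Krt20, Krt10, Krt12, Krt76, the root sheath keratins Krt25, Krt26, Krt28 and Krt73, and the hair keratins Krt31, Krt32, Krt34 and Krt40. GGGCGG, the GC box, stood in 2 keratin windows, Krt7 and Krt75 (5.41%), against 42.6% of all windows, and Krt7 had 4 matches. TGANTCA stood in 5.41% of keratin windows, both of Krt13, and in 6.13% of all windows. CCAAT stood in 40.5% of keratin windows and 35.4% of all windows. Like TATAAA, it stood in 0 of the 4 windows open in every library, and in 15 of the other 33 (45.5%). The other 33 include both windows of Krt13. Both strands were searched, and no motif of the 4 contains another. The median share of G and C was 59.2% in the 4 open windows, 46.8% in the other 33 and 55.6% over all windows. The 4 windows were grouped by their peaks, and these shares are descriptions without a test.

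**Figure D1:**
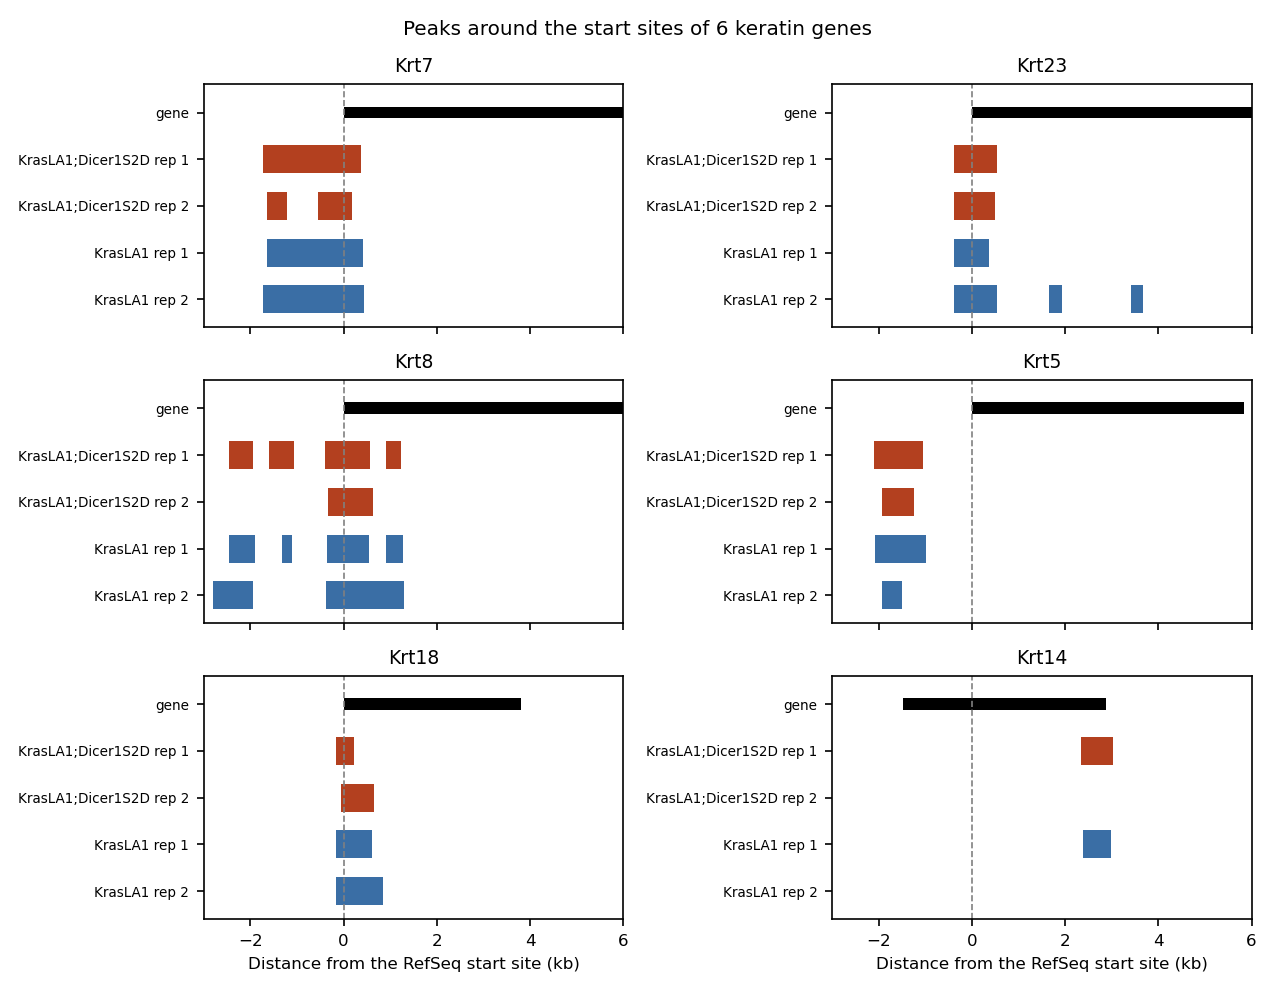
Peaks of each library (bars) by distance from the RefSeq start site in kb, in the direction of transcription, for 6 keratin genes, with the gene in black and the Dicer1S2D libraries above the KrasLA1 libraries. Krt7, Krt8, Krt18 and Krt23 have a peak over the start in all 4 libraries, Krt5 has a peak upstream of it in all 4, and Krt14 has a peak near its far end in both replicates 1.

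Among simple-epithelium keratins, 5 of 6 genes (83.3%) had a peak inside or up to 2 kb from the gene in every library, against 10 of the other 47 keratin genes (21.3%). Over all autosomal protein-coding genes the share was 61.5%. These genes had 9 and 6 of their 11 merged regions called in Dicer1S2D replicates 1 and 2, and 8 and 9 in KrasLA1 replicates 1 and 2. Krt7, the type II keratin of glandular and ductal epithelium, had the widest region of all keratin genes, 2176 bp over its start (chromosome 15, 101410666 to 101412841). Its peaks covered 2115 and 1163 bp in Dicer1S2D replicates 1 and 2, and 2058 and 2168 bp in KrasLA1 replicates 1 and 2. Dicer1S2D replicate 2 was the low library, and there the region was called as 2 separate peaks. A further region of 392 bp inside Krt7 (101424820 to 101425211) was called in all 4 libraries, as 311 and 180 bp in the Dicer1S2D tumours and 308 and 386 bp in the KrasLA1 tumours. The groups overlapped at Krt7 in both regions, since Dicer1S2D replicate 1 exceeded KrasLA1 replicate 1.

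Krt8, the type II keratin of simple epithelia, had 4 regions. The region over its start (chromosome 15, 102003046 to 102004739) had peaks of 1289 and 969 bp in Dicer1S2D replicates 1 and 2, and of 1255 and 1683 bp in KrasLA1 replicates 1 and 2. Both replicates 1 had 2 peaks there, and KrasLA1 replicate 2 had the widest. Upstream, a region centred at -1330 bp from the start (102005398 to 102005946, negative distances being upstream) was called in both replicates 1, with 549 bp in Dicer1S2D and 221 bp in KrasLA1. A region centred at -2354 bp (102006248 to 102007144) had 512 bp in Dicer1S2D replicate 1, no peak in Dicer1S2D replicate 2, and 543 and 866 bp in the KrasLA1 tumours. Dicer1S2D replicate 2 therefore had the start region of Krt8 and neither upstream region. The fourth region, 256 bp wide, lay at the end of the neighbouring gene Krt78 and within 2 kb of Krt8, counted for both, and was called in Dicer1S2D replicate 1 alone.

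Krt18, the type I partner of Krt8, had 1 region, over its start (chromosome 15, 102028048 to 102029062). Its peaks were 395 and 702 bp wide in Dicer1S2D replicates 1 and 2, and 764 and 1015 bp in KrasLA1 replicates 1 and 2. Both Dicer1S2D widths lay below both KrasLA1 widths, a difference of -0.58 ± 0.35 on the log2 scale (SE, n = 2 each, limma on widths centred on each library's median, adjusted p = 0.999967 over 24604 regions). The groups did not overlap for Krt18, an order also seen at 27.2% of 26402 autosomal regions called in every library. The difference did not pass the test. In simulated data that test recovered 0% of regions changed 4-fold with each region's own estimated spread, and 100% with the same spread for all regions. Krt8 did not share this order, since Dicer1S2D replicate 1 was wider there than KrasLA1 replicate 1.

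Krt19, a type I keratin of simple and ductal epithelia that lacks a tail domain, had 1 region of 1522 bp over a gene end (chromosome 11, 100144939 to 100146460). Its peaks covered 1200 and 1387 bp in Dicer1S2D replicates 1 and 2, and 1254 and 1522 bp in KrasLA1 replicates 1 and 2. Both replicates 2 were wider at Krt19 than both replicates 1. Krt23, a type I keratin of simple epithelia, had a region over its start (chromosome 11, 99492583 to 99493516) with peaks of 932 and 879 bp in the Dicer1S2D tumours and 771 and 920 bp in the KrasLA1 tumours, groups that overlapped. KrasLA1 replicate 2 alone had 2 further peaks inside Krt23, of 254 and 277 bp. Krt20, a keratin of gastric foveolar and intestinal epithelium, had no peak in any library within 2 kb of the gene (chromosome 11, 99428385 to 99438153). The series title names a gastric cell fate in lung adenocarcinoma, which the lack of a peak at Krt20 in bulk tissue does not test.

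Among keratins of the basal layer and of activated epithelium, only Krt5 had a region called in every library. Of these 7 genes, only Krt5 and Krt14 have a start in RefSeq's promoter table, and no peak lay over either. Krt5, the basal type II keratin, had 1 region, centred at -1546.5 bp from its start (chromosome 15, 101713902 to 101715001). Its peaks were 1040 and 685 bp wide in the Dicer1S2D tumours, and 1078 and 432 bp in the KrasLA1 tumours. Both replicates 1 were wider at Krt5 than both replicates 2, and the genotypes overlapped. Krt14, the partner of Krt5, had a region at its far end (chromosome 11, 100203000 to 100203692) with 693 bp in Dicer1S2D replicate 1 and 592 bp in KrasLA1 replicate 1, and no peak in either replicate 2. Krt15, another basal type I keratin, had no region. Krt6a, a keratin induced in wounded or hyperproliferative epithelium, had 3 regions within 2 kb of the gene, all 3 called in Dicer1S2D replicate 1 (172, 559 and 389 bp), none in Dicer1S2D replicate 2, the middle region in KrasLA1 replicate 1 (208 bp) and none in KrasLA1 replicate 2. Krt17, of the same class, had 2 regions, of 170 and 183 bp, both in Dicer1S2D replicate 1 alone. Krt6b and Krt16 had none. Over the 4 activated keratins, 5 and 0 of 5 regions were called in Dicer1S2D replicates 1 and 2, and 1 and 0 in KrasLA1 replicates 1 and 2. The second Dicer1S2D tumour had no peak at these genes.

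Among keratins of differentiated stratified epithelium, 6 of 10 genes had a region. Dicer1S2D replicates 1 and 2 had 14 and 4 of 15 regions, and each KrasLA1 tumour had 10. Krt78 held 9 of them, the most of any keratin gene, in a gene model of 50624 bp (chromosome 15, 101946001 to 101996624) that is also the longest among them. RefSeq's promoter table places its start at 101954287 on the minus strand, and 7 of the 9 regions lay upstream of that position within the gene model. Of these 9 regions, 8 and 3 were called in Dicer1S2D replicates 1 and 2, and 6 in each KrasLA1 tumour. The widest of the 9, 1177 bp (101952190 to 101953366), was called as 1169 and 393 bp in the Dicer1S2D tumours and 902 and 684 bp in the KrasLA1 tumours. Both KrasLA1 widths lay between the Dicer1S2D widths. Krt10, the type I keratin of differentiating epidermis, had 1 region in the gene (chromosome 11, 99385930 to 99386712), with peaks of 783 and 659 bp in the Dicer1S2D tumours and 709 and 687 bp in the KrasLA1 tumours. Krt13 and Krt4, the pair of internal stratified epithelia such as oesophagus, had 1 region each, absent from Dicer1S2D replicate 2. At Krt13 the peaks were 291 bp in Dicer1S2D replicate 1, and 222 and 317 bp in KrasLA1 replicates 1 and 2. At Krt4 they were 388 bp in Dicer1S2D replicate 1 and 175 bp in KrasLA1 replicate 1, with no peak in either replicate 2. Krt1, the partner of Krt10, had 2 regions, of which 2 and 0 were called in Dicer1S2D replicates 1 and 2, and 0 and 1 in KrasLA1 replicates 1 and 2. Krt77 had 1 region, called in all tumours but Dicer1S2D replicate 2. Krt2, Krt9, Krt12 and Krt76 had none.

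Keratins of hair, nail and root sheath were mostly without peaks, with exceptions shared by every tumour. Of 15 hair and nail keratins, 7 had a region, and 7 and 2 genes had a peak in Dicer1S2D replicates 1 and 2, against 6 and 3 in KrasLA1 replicates 1 and 2. Krt33a (440 and 272 bp in the Dicer1S2D tumours, 322 and 402 bp in the KrasLA1 tumours) and Krt86 (470 and 264 bp, against 446 and 474 bp) had a region in all 4. Krt39, Krt33b and Krt84 had 1 region each that both replicates 1 shared, Krt87 had 1 in all tumours but Dicer1S2D replicate 2, and Krt83 had 1 in Dicer1S2D replicate 1. Of 8 keratins of the inner root sheath and companion layer, Krt25 and Krt26 had 1 region each, inside the gene and called in all 4 libraries. Of the remaining 7 keratins, 3 had a peak in every library. They were Krt222, Krt79, a keratin of the hair canal and sebaceous duct, and Krt80, a keratin of many differentiating epithelia. The region at Krt222 also lay within 2 kb of Smarce1, a gene of a chromatin remodelling complex, and was the single keratin region near another protein-coding gene. Krt90 had 1 region in Dicer1S2D replicate 1. Without any region were 24 genes, which besides those named above are Krt24, Krt27, Krt28, Krt31, Krt32, Krt34, Krt35, Krt36, Krt40, Krt42, Krt71, Krt72, Krt73, Krt75, Krt81 and Krt82. The longest run of neighbours without a region was of 5 hair keratins, Krt34, Krt31, Krt32, Krt35 and Krt36, on chromosome 11.

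**Figure D2:**
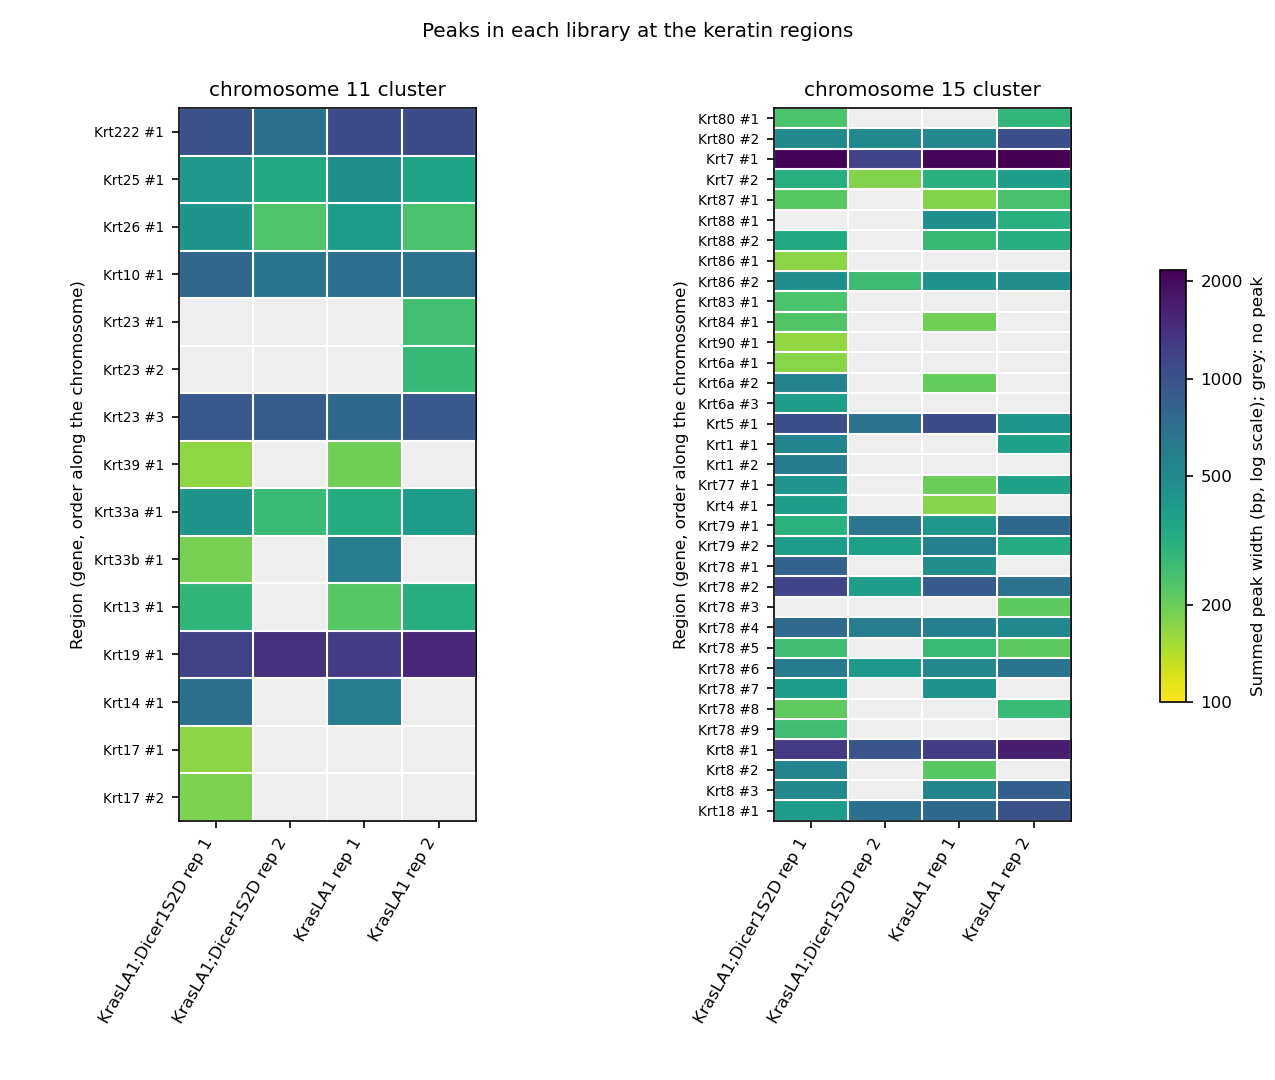
Each row is 1 of the 50 keratin regions, in order along its chromosome and numbered within its gene, and each column is a library, Dicer1S2D left of KrasLA1. Colour gives the summed width of the peaks in bp on a log scale and grey means no peak: Dicer1S2D replicate 1 has 46 coloured cells and Dicer1S2D replicate 2 has 19, all in rows that are coloured throughout.

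In all, the keratin genes held 50 merged regions, 15 on chromosome 11 and 35 on chromosome 15, and 29 of the 53 genes had at least 1. Of the 50, 5 lay over an annotated start, 4 over another gene end, 24 inside the gene and 17 outside it within 2 kb. Starts were placed for the 36 genes with an entry in the promoter table, so a region of another gene may lie over its start and be counted elsewhere. Of the 4 over another end, those of Krt19 and Krt80 belong to genes without an entry. Those called in every library were 4 of the 5 over a start, 3 of the 4 over another end, 10 of the 24 inside and 2 of the 17 outside. Regions called in 4 libraries had a median width of 798 bp, and those called in 1 library 227 bp, beside 789.5 and 253 bp for autosomal regions. At the 2 kb limit, the outermost region counted lay 1988 bp from Krt84 (2 libraries), and the nearest not counted lay 2710 bp from Krt5 (1 library). The chromosome 15 cluster, 0.688 Mb long, held 52 regions with those beyond 2 kb of a gene, or 75.6 per Mb, against 28.0 per Mb over chromosome 15. The chromosome 11 cluster, 1.04 Mb long, held 34, or 32.7 per Mb, against 34.1 per Mb over chromosome 11. It also contains 23 keratin-associated protein genes (Krtap, of hair), and its longest stretch without a region was 242 kb, with 10 Krtap genes and no keratin gene in it.

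The design asks whether these loci differed in openness between the genotypes. By number they did not differ by more than the spread between tumours, which was wide in the Dicer1S2D group. Keratin regions numbered 46 and 19 in Dicer1S2D replicates 1 and 2, and 35 and 32 in KrasLA1 replicates 1 and 2. The Dicer1S2D tumours were the highest and the lowest of the 4, with both KrasLA1 tumours between them. The means were 32.5 ± 19.1 regions in Dicer1S2D tumours and 33.5 ± 2.12 in KrasLA1 tumours (SD, n = 2 each), a difference of -1.0 (exact two-sided permutation test, p = 1, where the smallest possible p is 0.333). Genes with a peak numbered 29 and 15 in Dicer1S2D tumours and 25 and 20 in KrasLA1 tumours, a difference of means of -0.5 (p = 1 in the same exact permutation test). Peaks covered 22203 and 10843 bp of the gene windows in Dicer1S2D tumours and 18188 and 18249 bp in KrasLA1 tumours, a difference of -1695.5 bp (exact two-sided permutation test, p = 1). Single libraries decided the sign. The difference in regions was -14.5 without Dicer1S2D replicate 1, 12.5 without Dicer1S2D replicate 2, 0.5 without KrasLA1 replicate 1 and -3.0 without KrasLA1 replicate 2. In genes it was -7.5, 6.5, 2.0 and -3.0 in the same order, and in covered length -7375.5 bp without Dicer1S2D replicate 1 and 3984.5 bp without Dicer1S2D replicate 2.

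**Figure D3:**
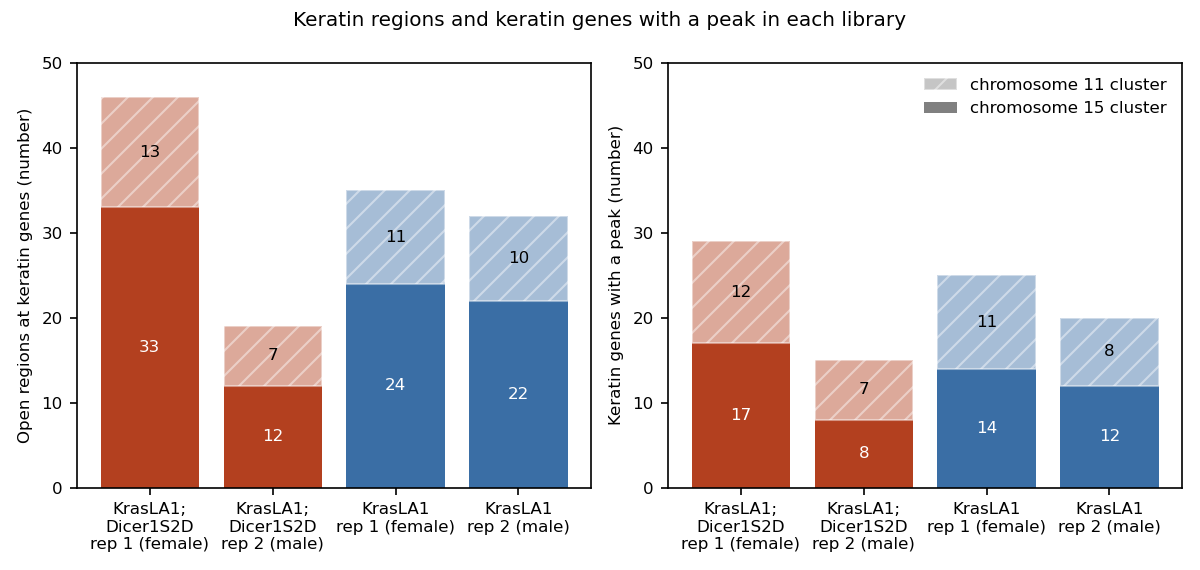
Bars give the number of keratin regions (left) and of keratin genes with a peak (right) in each library, with the chromosome 15 cluster in solid and the chromosome 11 cluster in hatched colour. In both panels Dicer1S2D replicate 1 is the highest and Dicer1S2D replicate 2 the lowest of the 4 libraries.

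No keratin region was called in both Dicer1S2D tumours and neither KrasLA1 tumour, and 1 was called in both KrasLA1 tumours and neither Dicer1S2D tumour. The shares over all 60713 autosomal regions were 0.596% in the first direction and 1.42% in the second, so 0 and 1 of 50 (2.0%) lie near the background. The 1 region was inside Krt88 (chromosome 15, 101453295 to 101453783), with no peak in either Dicer1S2D tumour and peaks of 467 and 311 bp in KrasLA1 replicates 1 and 2. It made Krt88 the 1 gene of 29 (3.45%) with such a region, beside 3.87% of 14712 autosomal genes with a region. For genes, the share in the direction of Dicer1S2D was 1.3%. A second Krt88 region, 847 bp outside the gene, was called in Dicer1S2D replicate 1 (335 bp) and in both KrasLA1 tumours (276 and 317 bp). With Dicer1S2D replicate 2 left out, 9 of 50 keratin regions were called in the remaining Dicer1S2D tumour and neither KrasLA1 tumour, beside 12.6% of autosomal regions. In the opposite direction the counts were 7 of 41 without Dicer1S2D replicate 1, beside 7.64%, and 4 of 50 without KrasLA1 replicate 1, beside 10.97%. With the widest 75% of peaks, and with equal numbers of widest peaks, the Krt88 region was no longer counted.

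Peak width allowed a test with replicates at the regions called once in each library. Of 24604 such autosomal regions, 0 (0%) passed an adjusted p of 0.05 in limma, and 716 had an unadjusted p under 0.05. Keratin genes held 16 of them, of which 0 passed and 0 had an unadjusted p under 0.05. In simulated data where each region's spread was estimated from its own widths, the test recovered 0% of regions changed 2-fold or 4-fold. With the same spread for all regions it recovered 77.5% and 100%. A spread estimated from 2 mice per group is itself uncertain and was taken as exact, so the power in these data is not known. That 0 passed therefore does not show that widths were alike. The median log2 difference, Dicer1S2D minus KrasLA1, was -0.03 over the 16 and 0.04 over all. It ran within the 16 down to -0.58 ± 0.35 at Krt18 and up to 0.47 ± 0.24 at a region of 798 bp inside Krt78 (SE, n = 2 each, limma). That Krt78 region (chromosome 15, 101966497 to 101967294) had peaks of 761 and 599 bp in Dicer1S2D tumours and 578 and 513 bp in KrasLA1 tumours, without overlap between the groups. At Krt80 the region over a gene end had 505 and 518 bp in Dicer1S2D tumours and 519 and 1044 bp in KrasLA1 tumours, a difference of -0.37 ± 0.31 (SE, n = 2 each, limma, adjusted p = 0.999967). The groups at Krt80 were separated by 1 bp. Over the 19 keratin regions called in every library, both Dicer1S2D widths were below both KrasLA1 widths at 3 (Krt18, Krt80 and Krt222), and above them at 1 (Krt78). Among 26402 autosomal regions called in every library the shares were 27.2% and 3.66%, before any centring. The order seen at Krt18 was thus common among autosomal regions called in every library. At the 24604 regions with 1 peak in each library, the median width was 591 and 544.5 bp in Dicer1S2D replicates 1 and 2. In KrasLA1 replicates 1 and 2 it was 585 and 685.5 bp. For all peaks of a library the medians were 410 and 468 bp, against 453 and 534 bp, in the same order. In neither case did both Dicer1S2D medians lie below both KrasLA1 medians. With the peaks of a library in a region summed, which brings in the start regions of Krt7 and Krt8 and the region over a gene end of Krt19, the differences were -0.27 ± 0.31 at Krt7, -0.21 ± 0.23 at Krt8 and 0.07 ± 0.22 at Krt19 (SE, n = 2 each, limma).

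**Figure D4:**
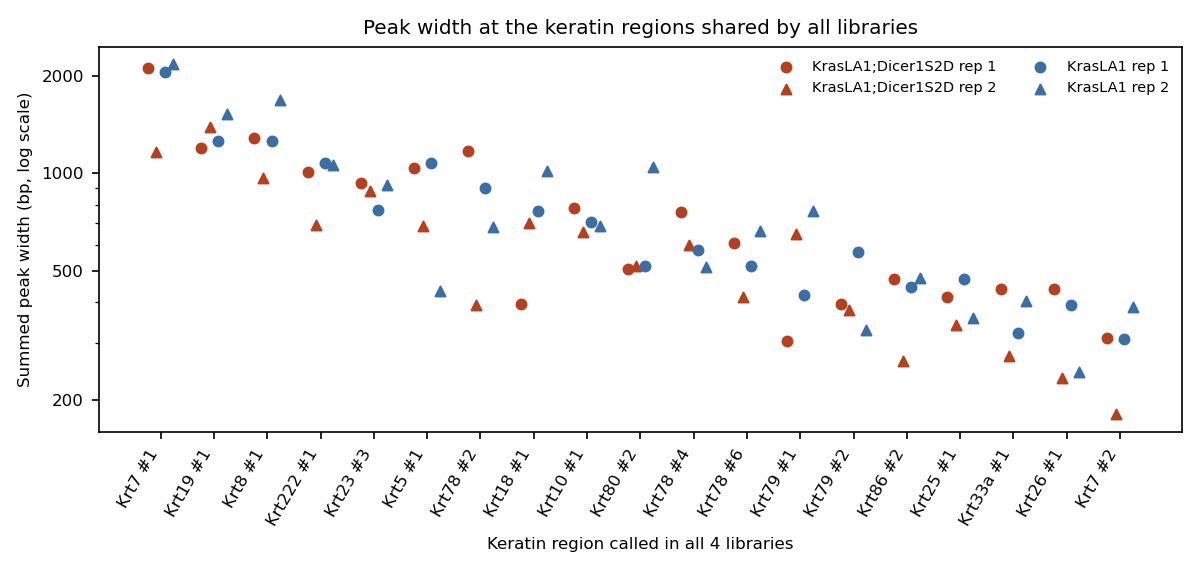
Summed peak width in bp (log axis) at the 19 keratin regions called in all 4 libraries, ordered by mean width, with Dicer1S2D libraries in red and left of KrasLA1 libraries in blue, circles for replicate 1 and triangles for replicate 2. The first regions of Krt7, Krt19 and Krt8 are the widest, and the colours are separate at 4 regions, of Krt18, Krt80, Krt222 and Krt78 (#4).

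The shares of regions called ranged more widely between libraries at the keratin genes than over the genome, a difference that was not tested. Of the 50 keratin regions, 92.0% (95% Wilson interval 81.2 to 96.8) were called in Dicer1S2D replicate 1 and 38.0% (25.9 to 51.8) in Dicer1S2D replicate 2. In KrasLA1 replicates 1 and 2 the shares were 70.0% (56.2 to 80.9) and 64.0% (50.1 to 75.9). Over autosomal regions the shares were 78.8% and 54.9% in Dicer1S2D replicates 1 and 2, and 66.0% and 71.8% in KrasLA1 replicates 1 and 2. The intervals cover counting error of neighbouring regions and not the spread between mice. All 19 keratin regions of Dicer1S2D replicate 2 were called in every library, against 79.3% of its autosomal regions. Both replicates 1 shared 9 of the 13 keratin regions called in 2 libraries (69.2%), beside 39.8% of 10090 autosomal ones. Among protein-coding autosomal genes, 67.6% and 64.2% had a peak in Dicer1S2D replicates 1 and 2, and 66.3% and 67.0% in KrasLA1 replicates 1 and 2. For keratin genes the shares were 54.7% and 28.3%, and 47.2% and 37.7%, in the same order. Dicer1S2D replicate 1 had the most peaks of all libraries (50282) and Dicer1S2D replicate 2 the fewest (34767), with 41621 and 44654 in KrasLA1 replicates 1 and 2. With equal numbers of widest peaks, Dicer1S2D replicates 1 and 2 had 31 and 19 keratin regions and KrasLA1 replicates 1 and 2 had 27 and 21, in the same order of libraries. In bulk tissue, fewer cells with an open locus and less openness per cell cannot be told apart.

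**Figure D5:**
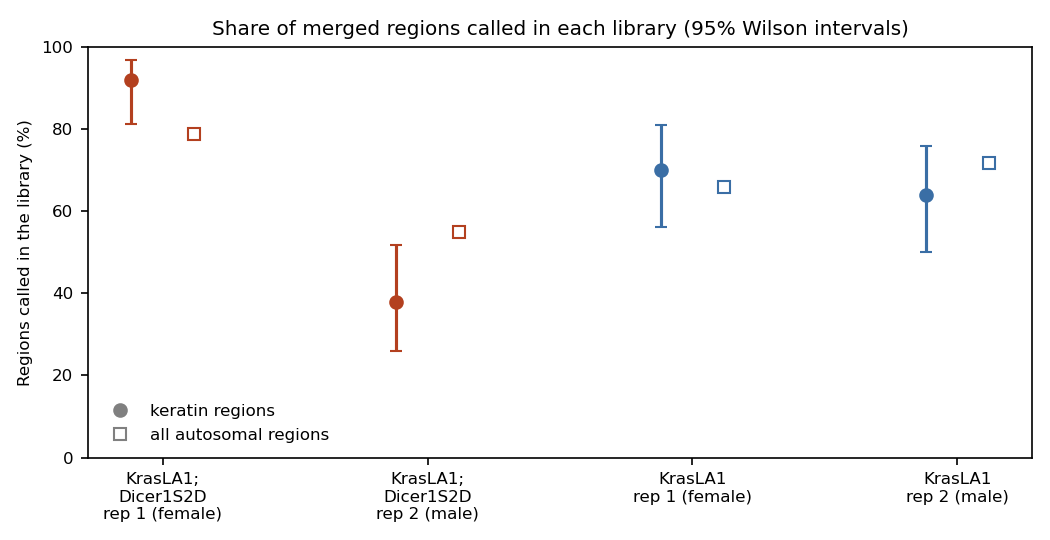
Share of merged regions called in each library in percent, for the 50 keratin regions (filled circles) and all 60713 autosomal regions (open squares), with 95% Wilson intervals. The keratin share exceeds the autosomal share in both replicates 1 and falls below it in both replicates 2. In the KrasLA1 tumours the autosomal share lies within the keratin interval, and in the Dicer1S2D tumours outside it.

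The tissue label was set beside peaks at marker genes. The epithelial genes Epcam and Cdh1 and the alveolar genes Sftpc, Sftpb and Nkx2-1 had a peak within 2 kb in all 4 libraries, as did the leukocyte genes Ptprc and Spi1, the endothelial gene Pecam1, the fibroblast gene Col1a1, and Trp63, which encodes p63 of basal cells. Cdh5 and Col1a2 had none. At Trp63, 3 and 1 of 5 regions were called in Dicer1S2D replicates 1 and 2, and 5 and 4 in KrasLA1 replicates 1 and 2. That order differs from that of Krt6a and Krt17, whose regions were most numerous in Dicer1S2D replicate 1. The part of other cell types in the keratin counts was not tested.

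Genes whose products anchor keratin filaments mostly had peaks in all tumours. Of 14 desmosome and cytolinker genes, such as Dsp (desmoplakin), Jup (plakoglobin) and Plec (plectin), 13 had a peak in each library. They held 72 regions, of which 57 and 35 were called in Dicer1S2D replicates 1 and 2, and 47 and 53 in KrasLA1 replicates 1 and 2. The low count of Dicer1S2D replicate 2 appeared here too. Of the 72, 0 were called in both Dicer1S2D tumours alone, and 2 in both KrasLA1 tumours alone, at Pkp4 (plakophilin 4) and Ppl (periplakin). Over all 60713 autosomal regions the shares were 0.596% and 1.42% in the same order. Of 12 other intermediate filament genes, such as Vim (vimentin) and Lmna (lamin A/C), 8 and 7 had a peak in Dicer1S2D replicates 1 and 2, and 9 in each KrasLA1 tumour. They held 15 regions, 13 and 11 in Dicer1S2D tumours and 13 and 14 in KrasLA1 tumours. Of these, 1 was called in both KrasLA1 tumours alone, at Prph (peripherin, of peripheral neurons), and 0 in the opposite direction. The same autosomal shares of 1.42% and 0.596% stand beside 1 and 0 of these 15 regions. Shared by all libraries were 73.3% of these regions, 47.2% of the desmosome and cytolinker regions and 38.0% of the keratin regions, beside 43.5% of autosomal regions.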

How the data were processed

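ATAC-seq libraries of 4 lung tumours, 2 per genotype, were made, sequenced and analysed by a company, per the labels' protocols. The authors deposited 4 tracks of peaks, 1 per library, and 1 of merged regions, in mm10 per the submitters' processing notes, with positions and no count, score or p-value. MACS3 3.0.0, deepTools 3.5.1 and BWA 0.7.12 stand in the submitters' processing notes. The sources used here give no threshold, filter or shift of reads. Shallower sequencing lowers the number of peaks called from equal chromatin. Tracks were matched to samples by the animal number, and 0 tracks belonged to other samples.

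Merging peaks that overlapped by 1 bp or more gave the deposited 61972 regions. Regions in a keratin gene or within 2 kb of it were counted. Genes came from RefSeq for GRCm38.p6, without exons or introns. Krt74, a pseudogene there, and Krt85 were not analysed here. Group means were compared with exact permutation tests, which rank the difference among all splits of these mice into 2 and 2 and do not measure their spread. Widths were taken as log2 of base pairs, centred on each library's median, and tested with limma 3.58.1 (R 4.3.3) over all autosomal regions with 1 peak in each library, with Benjamini-Hochberg adjustment. In simulated data over 24604 regions with the same spread, this test recovered 100% of 200 regions changed 4-fold and 77.5% changed 2-fold. It recovered 0% of both when each region's spread was estimated from its own widths within the groups and taken as exact. Python 3.11.15, numpy 2.4.6, pandas 2.3.3, scipy 1.17.1 and matplotlib 3.10.9 were used.

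The members, the lists of keratins and partners and the tests were chosen with earlier results of these data known. Named in full were the keratins of simple, basal, activated and lining epithelium, those with a region that followed genotype and the 5 with the most regions. The other keratins are given by counts, with widths for some chosen after their values were seen. The alternatives were the overlap that merges peaks, the number and width of peaks, the window, leaving out each library, and a block for replicate number.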

Additional observations from a re-analysis of the deposited data

Results flagged for a closer look

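The differences between genotypes at the keratin genes ran in opposite directions in the 2 sexes. Between the female tumours, Dicer1S2D minus KrasLA1 was 11 keratin regions, 4 keratin genes with a peak and 4015 bp of covered length. Between the male tumours the same differences were -13 regions, -5 genes and -7406 bp. Each sex has 1 tumour per genotype, so the difference between the sexes was not tested. The number of peaks over all chromosomes moved the same way, by 8661 between the female and -9887 between the male tumours, and its part in these values was not tested. Sex, replicate number and the single tumour cannot be told apart here.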

How the results depend on the processing

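The direction of the differences in regions and genes depended on the setting. With all 4 libraries p was 0.667 or more (exact permutation tests, two-sided), where the smallest possible p is 0.333. The difference in keratin regions was 1.0 with the widest 75% of peaks, 1.0 with equal numbers of widest peaks and 4.5 with a 10 kb flank, against -1.0 as reported. That in genes with a peak was 1.0 with equal numbers of widest peaks and 2.5 with a 10 kb flank, against -0.5. Both kept their sign with gene bodies alone (-3.5 regions, -2.0 genes) and with peaks of 200 bp or more (-3.0 regions, -0.5 genes). The difference in covered length was negative in every setting of peaks or windows (-2353 to -782.5 bp) and positive without Dicer1S2D replicate 2. Leaving out single libraries gave -14.5 to 12.5 regions, -7.5 to 6.5 genes, -7375.5 to 3984.5 bp covered, 0 to 9 regions called in the remaining Dicer1S2D tumours alone and 1 to 7 in the remaining KrasLA1 tumours alone. Beside the 9 stood 12.6% of autosomal regions, and beside the 7 stood 7.64%. Dicer1S2D replicate 2 gave the upper end of the first 4 ranges when left out, and Dicer1S2D replicate 1 the lower end of the first 3 and the 7. Regions called in both KrasLA1 tumours alone were 0 of 34 with the widest 75% of peaks, beside 1.49% of autosomal regions. They were 0 of 34 with equal numbers of widest peaks, beside 1.29%. With a 10 kb flank, 1 of 75 regions was called in both Dicer1S2D tumours alone, beside 0.596% of autosomal regions. The cause of these changes was not tested. Replicates share a number and a sex, and no source says that they were paired. Their deviations from the group means correlated at 0.15 over autosomal regions and 0.32 over the 50 keratin regions. With a replicate block the differences stayed -1.0 regions, -0.5 genes and -1695.5 bp (exact sign flips, p = 1, smallest possible p 0.5), and limma called 0 keratin regions by width, as in the other width settings tried. In the leave-one-out width fits the lone library of a group is assumed to vary like the others. The depth of the libraries is unknown.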
